A study of Zea mays with 12 samples.

Results

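The cellulose synthase catalytic subunit (CESA) genes of the maize leaf were followed along the leaf in cells of the bundle sheath (BS) and of the mesophyll (M). The 7 members are gene models taken by identifier from the deposited expression values: cesa2 (GRMZM2G027723), cesa3 (GRMZM2G039454), cesa6 (GRMZM2G113137), cesa7 (GRMZM2G025231), cesa10 (GRMZM2G445905), GRMZM2G028353, which has no gene name, and CesA12 (GRMZM2G142898). All 7 were among the 110005 gene models of the file, and all 7 passed the filter on low values that left 32548 genes for the tests. By the labels all 12 libraries are of the inbred Mo17, while the study's methods name B73 sections as well. Cells were cut by laser microdissection from sections of the third leaf of 9-day-old seedlings, and no mutant, transgene or treatment was used. The sections were numbered 4, 9 and 14 and, in the study's account, lay at -1, 4 and 9 cm, which it calls the sink-source transition (SST), the maturing and the mature stage, here matched in order. Every combination of a stage with a cell type had 2 libraries, which gave 6 groups and 12 libraries. The amount of RNA captured was small and was amplified before sequencing, and nothing says whether the 2 libraries of a group came from separate plants, so the p-values measure the spread between these libraries, which may be technical.

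Cellulose is made at the plasma membrane by rosette complexes in which several CESA proteins act together, each adding glucose to a growing chain. In Arabidopsis one set of CESA proteins, with CESA1, CESA3 and the CESA6 type, works while the thin primary wall of an expanding cell is laid down, and another set, CESA4, CESA7 and CESA8, makes the thick secondary wall of cells that have stopped growing. In maize CesA10, CesA11 and CesA12 are counted to the secondary wall set. The study annotated cesa2 and cesa3 to Arabidopsis CESA1, cesa6 and cesa7 to CESA6, and GRMZM2G028353 to CESA2, a relative of CESA6. The wall of the BS cell, which surrounds the vein, is thick and in many C4 grasses suberized, while M cells have thin walls. A BS and an M capture are bulk samples, in which fewer cells of a type and less RNA per cell cannot be told apart.

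Levels are FPKM, fragments counted per length of transcript and per mapped fragments of the library, with the upper quartile of every library set to 2.56. FPKM is per length, so that levels of different genes can be set beside each other, although the amplification favours the 3' ends of transcripts. Differences are log2 of scaled FPKM plus 0.256, fitted with limma over all tested genes, and a gene was called at a Benjamini-Hochberg adjusted p below 0.01. The pseudocount draws differences of low genes toward 0. The 4 BS markers (NADP-ME, Rubisco small subunit, Rubisco activase, PEPCK) lay higher in both BS libraries at each stage, and the 4 M markers (PepC, PPDK, MDH, carbonic anhydrase) lay higher in both M libraries. Depth was recovered from the steps that single reads leave in low values. Set against the first library of SST BS it was 0.645 to 1.0 at SST, 2.31 to 2.36 at maturing and 0.874 to 1.21 at mature, so that low values are best resolved at the maturing stage. Read numbers, which are estimates from these steps, could be recovered for 6 of the 7 members, from 0 to 620 reads in a library, and were not resolved for cesa10.

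**Figure D1:**
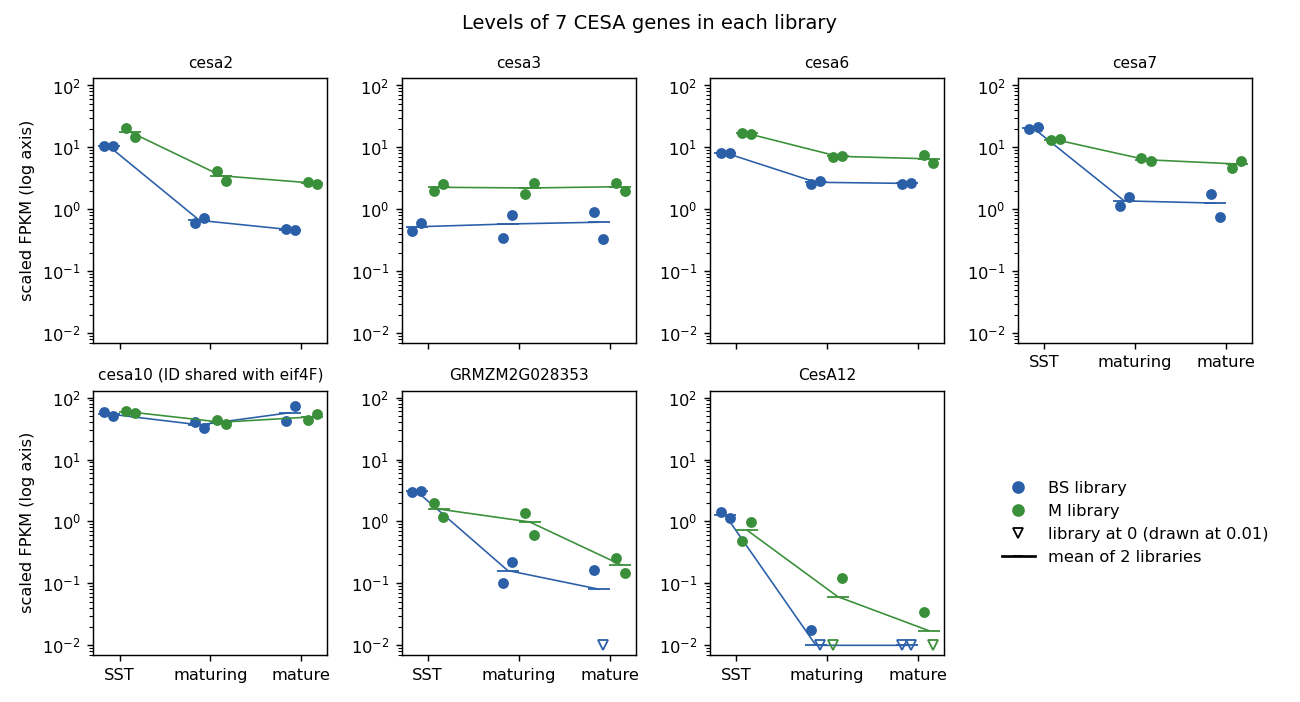
Scaled FPKM (log axis) of the 7 members at the 3 stages, with 1 point per library (blue BS, green M), a bar at the mean of the 2 libraries of a group, and open triangles for libraries at 0, drawn at 0.01, where means below 0.01 are drawn too. The blue points of cesa7, GRMZM2G028353 and CesA12 lie above the green ones at SST and not at the later stages, and cesa10 stays between 32.8 and 72.1 FPKM in all 12 libraries.

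The CESA1-type gene cesa2 was highest at SST, and higher in M than in BS at each stage. At SST its level in the 2 libraries was 10.6 and 10.5 FPKM in BS and 20.7 and 14.7 in M. At maturing it was 0.594 and 0.735 FPKM in BS and 4.15 and 2.82 in M, and at mature 0.480 and 0.459 in BS and 2.74 and 2.59 in M. Both M libraries lay above both BS libraries at each stage, and no neighbouring groups in the order of the 6 levels overlapped. The fitted log2 BS/M was -2.01 at maturing (standard error 0.25, limma adjusted p = 0.00136) and -2.01 at mature (adjusted p = 0.00208), both called, which is 4.01 and 4.02 times lower in BS. At SST it was -0.71 (adjusted p = 0.126) and was not called.

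The other CESA1-type gene, cesa3, was low, and M-enriched in level at each stage without a call. In BS its level was 0.442 and 0.605 FPKM at SST, 0.341 and 0.820 at maturing and 0.906 and 0.334 at mature. In M it was 1.97 and 2.57, then 1.78 and 2.65, then 2.65 and 1.99 FPKM. The 6 M libraries all lay above the 6 BS libraries, while within a cell type the 3 stages overlapped. The BS values rested on 8 to 47 reads a library. The log2 BS/M was -1.70, -1.60 and -1.63 at SST, maturing and mature, and with adjusted p-values of 0.0465, 0.0418 and 0.0427 none of these was called. From SST to mature the log2 difference of cesa3 was 0.09 in BS (95% interval -0.91 to 1.10) and 0.03 in M (-0.98 to 1.03), and in the values as deposited it was -0.03 and -0.08.

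The CESA6-type gene cesa6 was M-enriched in every pair of libraries, with the smallest standard error of the members (0.17). At SST its level was 8.16 and 8.23 FPKM in BS and 17.0 and 16.7 in M. It was 2.59 and 2.88 against 7.07 and 7.31 at maturing, and 2.57 and 2.68 against 7.41 and 5.68 at mature. The mean BS level was 48.6%, 38.1% and 40.1% of the M level at SST, maturing and mature. The log2 BS/M was -1.32 at maturing (standard error 0.17, adjusted p = 0.0017) and -1.23 at mature (adjusted p = 0.00352), both called. At SST it was -1.02 with an adjusted p of 0.0109, just outside the threshold, and passed with a pseudocount of 1 FPKM (0.00703) or a stricter filter on low values (0.00715).

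For cesa7, the second gene annotated to CESA6, the order of the cell types at SST was the reverse of that at the later stages. At SST it stood at 19.7 and 21.4 FPKM in BS and 13.1 and 13.7 in M, with both BS libraries above both M libraries. At maturing it stood at 1.13 and 1.61 in BS and 6.68 and 5.98 in M, and at mature at 1.77 and 0.756 in BS and 4.71 and 6.10 in M, with both M libraries above both BS libraries. Of the 6 members other than cesa10, cesa7 was the highest in SST BS cells. The log2 BS/M of 0.61 at SST was not called (standard error 0.32, 95% interval -0.14 to 1.35, adjusted p = 0.311). At maturing it was -2.03 (adjusted p = 0.00416) and at mature -1.97 (adjusted p = 0.00654), both called, and these calls were the least stable among the BS to M calls of the members: the one at maturing was lost when any of the 4 maturing libraries was left out (adjusted p = 0.0135 to 0.0351), and the one at mature when any but the first BS library was left out (0.0132 to 0.0423). cesa6 and cesa7 were annotated to the same rice gene, and how reads that fit both were counted is not given in the sources used here, so that the split between them is uncertain, as it is between cesa2 and cesa3.

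GRMZM2G028353 was lower and had the same order as cesa7 at SST and maturing. It stood at 2.96 and 3.14 FPKM in SST BS (95 and 92 reads) and at 2.01 and 1.16 in SST M (41 and 25 reads). At maturing it stood at 0.101 and 0.222 FPKM in BS (7 and 15 reads) and at 1.37 and 0.595 in M (83 and 36 reads). At mature it was near the limit of detection in both, at 0.161 and 0 in BS (4 and 0 reads) and 0.253 and 0.150 in M (9 and 4 reads), and the libraries of the 2 cell types overlapped. The log2 BS/M was 0.88 at SST (adjusted p = 0.29), -1.51 at maturing (adjusted p = 0.0529) and -0.48 at mature (adjusted p = 0.584), none of them called.

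CesA12, of the secondary wall set, was found almost only at SST. It had 37 and 27 reads in the SST BS libraries (1.42 and 1.13 FPKM) and 8 and 17 in SST M (0.483 and 0.969 FPKM). In the 8 later libraries it had 0 reads in 5 of them, 1 read in the first maturing BS library, 6 in the second maturing M library and 1 in the first mature M library. Both SST BS libraries lay above both SST M libraries. The log2 BS/M there, 0.68 (95% interval -0.12 to 1.49, adjusted p = 0.296), was not called. At the later stages the reads were too few to compare the cell types. By reads per unit of depth, SST BS lay 143 times above maturing BS, where the exact 95% counting interval runs from 24.7 to 5730, since maturing BS had 1 read in all. Against 0 reads in mature BS, SST BS lay 18.5 times higher if a floor of 3 reads over both libraries is set. The lower limit of the exact 95% counting interval was 14.6. Such intervals and floors cover counting error only, and reads from amplified RNA are not independent molecules.

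The gene model listed as cesa10 was the highest in every group, and its values cannot be assigned to a cellulose synthase alone. RefSeq gives the identifier GRMZM2G445905 to 2 neighbouring genes, cesa10, of the secondary wall set, and a gene that carries the synonym csu1007(eif4F), after the cap-binding complex that starts translation, and the file has 1 value for both. At SST it stood at 57.9 and 51.0 FPKM in BS and at 60.2 and 56.8 in M. The BS libraries had 39.6 and 32.8 FPKM at maturing and 42.1 and 72.1 at mature, and the M libraries had 43.0 and 37.0, then 44.2 and 53.4. BS and M overlapped at each stage. The log2 BS/M was -0.10 (95% interval -0.67 to 0.46) at SST, -0.14 (-0.71 to 0.42) at maturing, where it was 0.02 in the values as deposited, and 0.18 (-0.39 to 0.75) at mature, where it was -0.20 without the second BS library. These intervals hold a difference of up to 1.68-fold in either direction. No value separates the 2 genes, and their parts in the level cannot be told apart. Over the 12 libraries the Pearson r of log2 values between GRMZM2G445905 and CesA12, the other member of the secondary wall set, was 0.44. With the other members it ran from -0.15 (cesa3) to 0.40 (cesa2). CesA12 lay near 0 after SST, and these correlations do not separate the 2 genes. The genes most like GRMZM2G445905 among those with a mean above the upper quartile were GRMZM2G175419 (RS2Z37A, an SR-type splicing factor name, r = 0.91), GRMZM2G136296 (0.88) and GRMZM2G054418 (kin15, a kinesin name, 0.88).

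Between the cell types, members were called at the 2 later stages and all toward M. At SST none of the 7 was called by limma, where 3.08% of all tested genes were called (1.64% BS-enriched and 1.44% M-enriched), and 3 of the 7 (cesa2, cesa3 and cesa6) had an unadjusted p below 0.05. At maturing 3 of 7 were called, all M-enriched (cesa2, cesa6 and cesa7), against 8.38% of all tested genes in either direction, 4.82% BS-enriched and 3.56% M-enriched. At mature the same 3 of 7 were called, again M-enriched, against 5.72% in either direction, 3.66% BS-enriched and 2.07% M-enriched. The members had a median log2 BS/M of -0.10, -1.51 and -1.23 at SST, maturing and mature, where the median of all tested genes was 0 at each stage. At SST, 3 members had both M libraries above both BS libraries, 3 the reverse and 1 overlapped, beside 22.9% and 20.7% of all tested genes in these orders. At maturing the numbers were 5, 0 and 2 (30.6% with M above and 20.3% with BS above over all tested genes), and at mature 4, 0 and 3 (22.5% and 20.3%).

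**Figure D2:**
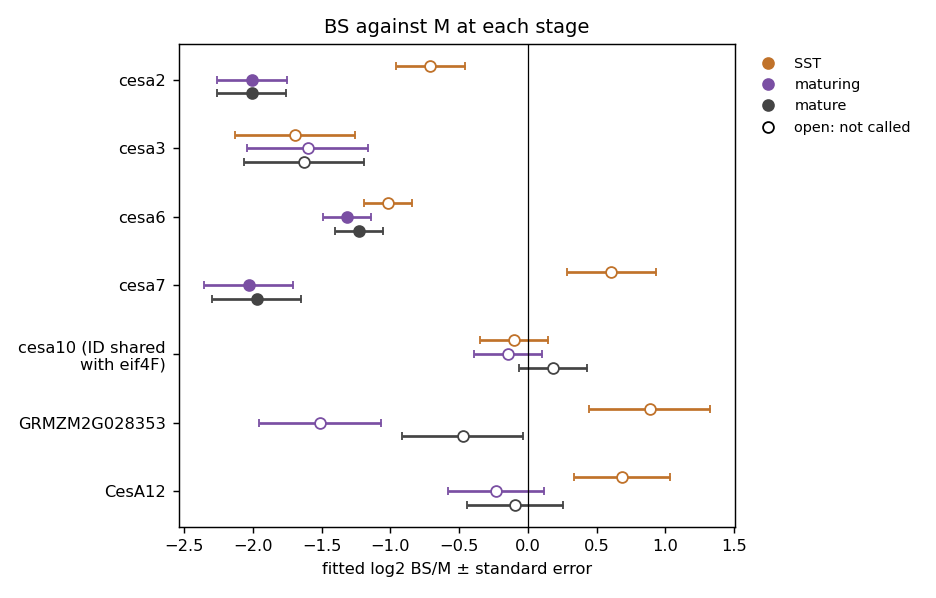
Fitted log2 BS/M (bars, 1 standard error) of the 7 members at SST, maturing and mature, with filled points for called differences and open points for those not called. The 3 filled genes, cesa2, cesa6 and cesa7, lie between -2.03 and -1.23 at maturing and mature.

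In all 3 stages the M libraries also held more of a list of 10 epidermal genes (homeobox genes of the outer cell layer and glossy genes), which mark the layer that covers the mesophyll. Of these 10, both M libraries lay above both BS libraries for 7 genes at SST, 9 at maturing and 8 at mature, and for none was it the reverse. The summed level of the 10 genes was 2.57 to 3.78 FPKM in SST BS and 10.7 to 12.7 in SST M. It was 1.13 to 1.73 in maturing BS and 11.3 to 11.8 in maturing M, and 3.08 to 8.99 in mature BS and 23.1 to 24.5 in mature M. At each stage 1 of the 10 was at 0 in both M libraries, and 2, 2 and 3 of them were at 0 in both BS libraries at SST, maturing and mature. In the BS captures sut1, a sucrose transporter of phloem companion and BS cells and the phloem marker that could be matched, stood at 41.5 to 288 FPKM, against 2.01 to 11.9 in M. No xylem marker could be matched. The part of epidermal, phloem or xylem RNA in the BS to M differences was not tested.

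Along the leaf most members fell from SST. In BS, 5 of 7 members were called lower at maturing than at SST (cesa2, cesa6, cesa7, GRMZM2G028353 and CesA12), against 11.1% of all tested genes called in either direction, 6.10% higher and 5.01% lower. The fitted value was negative for 6 of 7 there, beside 53.1% of all tested genes. In M, 2 of 7 were called lower (cesa2 and cesa6), against 8.35%, with 4.48% higher and 3.87% lower. All 7 fitted values were negative in M, beside 40.6% of all tested genes. From SST to mature the same 5 were called lower in BS, against 22.0% of all tested genes (12.1% higher and 9.91% lower), and 4 of 7 in M (cesa2, cesa6, GRMZM2G028353 and CesA12), against 19.5% (10.5% higher and 8.97% lower). Fitted values were negative for 5 of 7 in BS and 6 of 7 in M, beside 55.2% and 43.5% of all tested genes. No member was called higher in any stage comparison. The median change of the members from SST to maturing was -2.53 in BS and -1.05 in M on the log2 scale, against 0 for all tested genes in both.

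The sizes of the decline differed between the genes. cesa2 fell by 3.56 on the log2 scale in BS from SST to maturing (standard error 0.25, adjusted p = 8.24e-05), an 11.8-fold change, and by 2.26 in M (adjusted p = 0.000931), a 4.8-fold change. cesa7 fell by 3.69 in BS (adjusted p = 0.000192), and its M value of -1.05 was not called (adjusted p = 0.0601). cesa6 fell by 1.5 in BS (adjusted p = 0.000707) and by 1.20 in M (adjusted p = 0.00284), a call lost when any but the second SST M library was left out (adjusted p = 0.0105 to 0.0134). At maturing the mean BS level was 33.4% of that at SST for cesa6 and 6.67% for cesa7. GRMZM2G028353 fell by 3.0 in BS (adjusted p = 0.00221) and had a value of -0.61 in M (adjusted p = 0.418), and its BS call was lost when any but the second maturing BS library was left out (adjusted p = 0.0148 to 0.018) or with a pseudocount of 0.0256 (0.018). CesA12 fell by 2.53 in BS (adjusted p = 0.00166), where the pseudocount sets the size, and its M value was -1.61 (adjusted p = 0.016). In M, GRMZM2G028353 and CesA12 were called only from SST to mature. The value of GRMZM2G028353, -1.98, ran from -2.32 to -1.64 when 1 of the 4 libraries was left out and then was not called (adjusted p = 0.0165 to 0.0548). That of CesA12, -1.80, ran from -2.17 to -1.44 and was not called when any but the first SST M library was left out (0.0128 to 0.0203). From SST to mature the shared identifier GRMZM2G445905 (cesa10) had a BS value of 0.02, and -0.16 in the values as deposited.

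**Figure D3:**
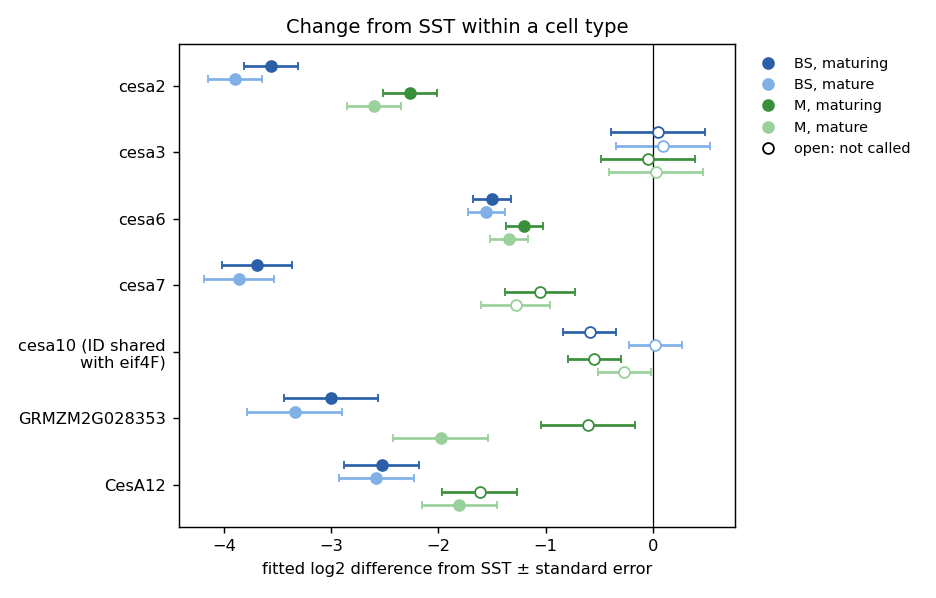
Fitted log2 difference from SST (bars, 1 standard error) of the 7 members at maturing and mature in BS (blue) and M (green), filled where called. cesa2 and cesa7 reach -3.90 and -3.86 in mature BS, while cesa3 lies within 0.10 of 0 there and in mature M.

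From maturing to mature no member was called in BS or in M by limma, while 14.4% and 14.3% of all tested genes were, and 1 member had an unadjusted p below 0.05 in each, cesa10 in BS (0.61 on the log2 scale) and GRMZM2G028353 in M (-1.37, adjusted p = 0.0542). For CesA12 both stages were at the limit of detection. After scaling to the upper quartile, the median log2 difference from SST to maturing of the 13609 genes with a mean above 2.56 FPKM was 0.25 in BS and 0.23 in M, where the deposited values gave 0.14 and 0.00, so that the falls are somewhat larger relative to these genes. Their median log2 BS/M at maturing was -0.15, where the deposited values gave 0.00, and the calls at maturing were 3 of 7 under each scaling. All calls rest on the spread shared by the 6 groups: with a separate fit for the 4 libraries of a comparison, which leaves 2 residual degrees of freedom, no member was called in any of the BS against M or stage comparisons.

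The change of log2 BS/M between stages tests whether the cell bias itself moved. No member was called by limma from SST to maturing, where 0.307% of all tested genes were, from maturing to mature (0.934%) or from SST to mature (0.734%). At an unadjusted p below 0.05 there were 3, 0 and 2 members. For cesa7 the change was -2.64 from SST to maturing (standard error 0.46, adjusted p = 0.0323) and -2.58 from SST to mature (adjusted p = 0.0258). For GRMZM2G028353 it was -2.40 from SST to maturing (standard error 0.62, adjusted p = 0.103), and for cesa2 it was -1.30 (standard error 0.36, adjusted p = 0.119). For cesa6 it was -0.30 with an adjusted p of 0.575. Both cesa7 and GRMZM2G028353 had BS above M at SST and M above BS at maturing in all libraries, and the change passed the threshold for neither. The BS to M difference at SST was called for neither as well. Of all tested genes 20.7% had BS above M at SST and 30.6% M above BS at maturing, and the share with both was not counted.

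Shares of the members in their own summed level are given by stage and cell type as a description, with no test. They are not shares of all CESA transcripts. CesA-1, for example, is outside the members and had a mean of 5.81 FPKM in SST BS and 7.84 in SST M. With GRMZM2G445905 left out, because its reads cannot be assigned, a choice made after its identifier was seen to be shared, the summed level of the other 6 members was 44.2 ± 1.24 FPKM (SD, n = 2) in BS and 52.5 ± 3.83 in M at SST. It was 5.52 ± 1.05 in BS and 20.3 ± 1.11 in M at maturing, and 5.06 ± 1.17 and 17.2 ± 0.905 at mature. In SST BS cesa7 held 45.5% and 47.5% of this sum in the 2 libraries, cesa2 24.5% and 23.4%, and cesa6 18.9% and 18.3%. In maturing BS cesa6 held 54.3% and 46.0% and cesa7 23.7% and 25.7%. In M cells the 3 genes were closer to each other: cesa2, cesa6 and cesa7 held 33.4%, 32.2% and 25.6% of the sum at SST (means of 2 libraries) and 17.1%, 35.6% and 31.2% at maturing. At SST the share of cesa3 was 1.18% in BS and 4.37% in M, and it lay between 10.1% and 13.5% in the 4 later groups, where the sum of the others was lower. CesA12 and GRMZM2G028353 together held the most in SST BS, with 2.90% and 6.91%. With GRMZM2G445905 included, it alone held 52.7% to 91.1% of the sum in the group means.

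**Figure D4:**
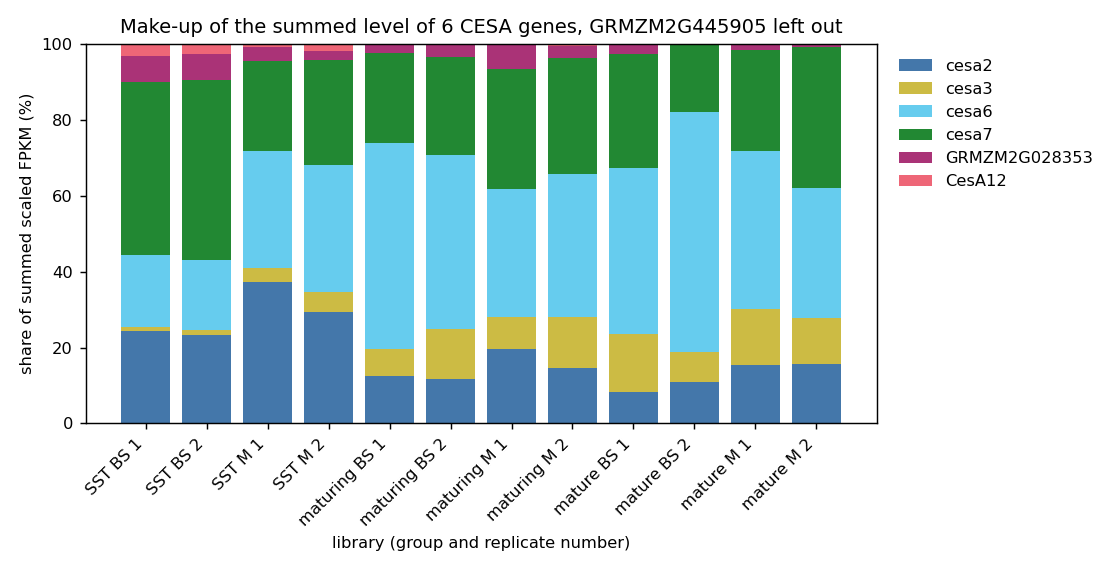
Share (%) of each of 6 members in their summed scaled FPKM, 1 bar per library, GRMZM2G445905 left out. The green part, cesa7, is 45.5% and 47.5% in the SST BS libraries and 17.9% to 36.9% in the other 10.

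The 5 members called lower in BS after SST were grouped by their fall in these same 12 libraries, and cesa3 had no such call. That the 5 ran more alike than cesa3 did with them was therefore set by the grouping, and is no further result. The Pearson r of log2 values is given as a description over libraries that share their stage and cell type, with no test. It was 0.96 between cesa2 and cesa6, 0.95 between cesa2 and cesa7 and 0.88 between cesa6 and cesa7. It was 0.91 between cesa7 and GRMZM2G028353 and 0.84 between GRMZM2G028353 and CesA12. For cesa6 it was 0.76 with GRMZM2G028353 and 0.69 with CesA12. For cesa3 it was 0.41 with cesa2, 0.62 with cesa6, 0.38 with cesa7, 0.12 with GRMZM2G028353 and -0.05 with CesA12. The genes most like cesa3 among those above the pseudocount were GRMZM2G067225 (aos1, a name for allene oxide synthase of jasmonate synthesis; r = 0.98), GRMZM2G152975 (0.97) and GRMZM2G017080 (0.96). In the same set those most like CesA12 were GRMZM2G045287, GRMZM2G390350 and GRMZM5G883759 (each 0.98). Among genes with a mean above the upper quartile those most like cesa7 were GRMZM2G083716 (0.99), AC202120.3_FG003 (0.99) and GRMZM2G076029 (0.98). These 6 have no descriptive name in the reference table.

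The 9 other CESA gene models that the study draws or annotates beside the members, chosen by it on these samples, held 4 that passed the filter on low values. CesA-1 was the highest of them, with 5.01 and 6.60 FPKM in BS and 7.94 and 7.75 in M at SST, and CesA-8 stood at 2.15 and 2.06 in BS and 3.29 and 2.04 in M there. By limma none of the 4 was called in BS against M at any stage, and 2, 3 and 1 of the 4 had an unadjusted p below 0.05 at SST, maturing and mature, and their median log2 BS/M at the 3 stages was -0.35, -1.19 and -0.44. From SST to maturing 2 of 4 were called lower in BS (CesA-1 by 3.50 and CesA-4 by 1.93 on the log2 scale) and 1 of 4 in M (CesA-1 by 2.60), beside 5.01% and 3.87% of all tested genes. All 4 fitted values were negative in both cell types. CesA-8, without a call, went to 0.290 and 0.325 FPKM in maturing BS. Of the other 5 models, 3 were at 0 in all 12 libraries. The secondary wall gene cesa11, named here after its values were seen, has 2 of the 9 models: GRMZM2G055795 was at 0 in all libraries, and GRMZM2G037413 was above 0 in the 2 SST BS libraries alone, at 0.0364 and 0.199 FPKM, too low to be tested.

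Partners of the CESA complex were taken as a list of 7 genes, KORRIGAN-type endoglucanases, which are membrane-bound enzymes needed for cellulose synthesis, and COBRA-family genes, which guide the deposition of cellulose at the cell surface. This list too was chosen by the study on these samples, so its direction is not independent evidence. From SST to maturing 5 of 7 were called lower in BS and 1 of 7 in M, beside 5.01% and 3.87% of all tested genes. From SST to mature 4 and 3 of 7 were called lower in BS and M, beside 9.91% and 8.97%, and none was called higher. In each of these 4 comparisons 2 of the 7 fitted values were positive. At maturing 2 of 7 were M-enriched, the KORRIGAN-type genes GRMZM2G147849 (log2 BS/M -1.81, adjusted p = 0.00362) and Cel12Chr1 (-1.61, adjusted p = 0.00759), and none was called by limma at SST or mature, where 1 and 5 had an unadjusted p below 0.05. Of all tested genes 3.56% were called M-enriched at maturing. GRMZM2G147849 stood at 1.58 and 2.26 FPKM in maturing BS and 7.65 and 6.90 in M. The median log2 BS/M of the list was -0.44, -1.61 and -1.11 at SST, maturing and mature, beside -0.10, -1.51 and -1.23 for the CESA members.

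The cellulose synthase-like genes, relatives of CESA that make other wall glucans and mannans, did not change in 1 direction along the leaf, while most had negative fitted BS to M values. Of 15, 14 were tested. In BS against M, 1 was BS-enriched and 1 M-enriched at SST, 1 and 1 at maturing and none at mature by limma. Of all tested genes 1.64% were called BS-enriched and 1.44% M-enriched at SST, 4.82% and 3.56% at maturing, and 3.66% and 2.07% at mature. An unadjusted p below 0.05 was found for 7, 11 and 7 of 14 at SST, maturing and mature. At each stage 11 of 14 fitted values were negative, beside 43.7%, 50.2% and 47.5% of all tested genes at SST, maturing and mature. Their median log2 BS/M was -0.50, -1.38 and -0.92 at the 3 stages, beside -0.10, -1.51 and -1.23 for the CESA members. GRMZM2G113432, annotated to the CSLD type, was BS-enriched at SST, with 27.1 and 24.0 FPKM in BS and 5.71 and 3.66 in M (log2 BS/M 2.42, adjusted p = 0.00242), and at maturing (1.48, adjusted p = 0.00862), and fell by 5.69 in BS from SST to mature (adjusted p = 5.06e-06). Another CSLD-type gene, GRMZM5G870176, was M-enriched at SST (-1.88, adjusted p = 0.00948), and GRMZM2G074546 at maturing (-2.59, adjusted p = 0.00435). From SST to mature 5 of 14 were called higher and 5 lower in BS, and 5 higher and 5 lower in M. Of all tested genes 12.1% were called higher and 9.91% lower in BS, and 10.5% higher and 8.97% lower in M.

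**Figure D5:**
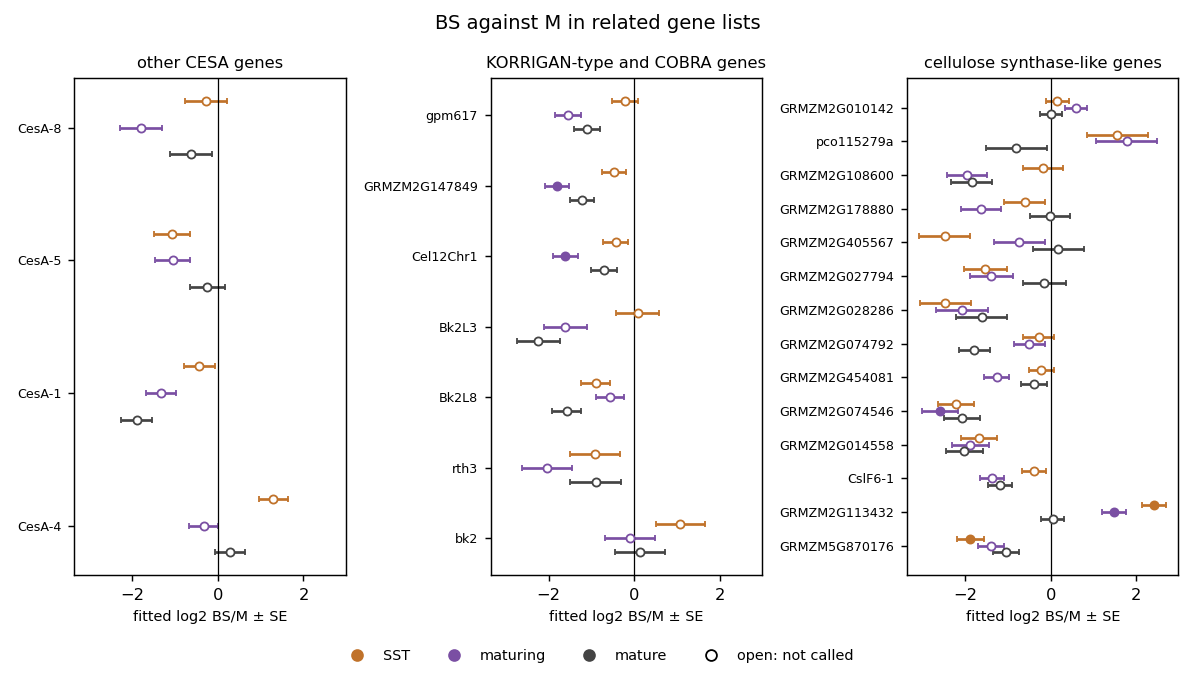
Fitted log2 BS/M (bars, 1 standard error) at the 3 stages for 4 other CESA genes, 7 KORRIGAN-type and COBRA genes and 14 cellulose synthase-like genes, filled where called. The filled points on the right of 0 are GRMZM2G113432 at SST (2.42) and maturing (1.48).

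Of 18 expansin and xyloglucan endotransglucosylase names, enzymes and proteins that loosen or rebuild the primary wall, 9 were tested. From SST to maturing 4 were called lower in BS and 3 in M, and 1 was called higher in M. Of all tested genes 5.01% were called lower in BS and 3.87% lower in M, and 4.48% higher in M. EXPA5 was M-enriched at maturing (log2 BS/M -2.36, adjusted p = 0.00528) and mature (-2.63, adjusted p = 0.00459), and no other gene of the list was called in BS against M (none at SST, where 4 had an unadjusted p below 0.05). Of all tested genes 3.56% were called M-enriched at maturing and 2.07% at mature. The median log2 BS/M of the 9 was -1.31, -1.50 and -1.98 at SST, maturing and mature, with 5, 6 and 7 negative values. Of 21 laccase and lignin names with the NST1 homologue GRMZM2G171395, a homologue of an Arabidopsis regulator of secondary walls, 10 were tested. Genes of this list called in BS against M were all BS-enriched: 2 at SST, 1 at maturing and 3 at mature. Over all tested genes 1.64%, 4.82% and 3.66% were called BS-enriched at these stages. CAOMT, a caffeic acid methyltransferase, stood at 502.8 and 506.4 FPKM in SST BS and 141.7 and 177.6 in SST M (log2 BS/M 1.67, adjusted p = 0.00495), and had a log2 BS/M of 3.07 at mature (adjusted p = 0.000225). BM1, a cinnamyl alcohol dehydrogenase, was called at SST (1.90, adjusted p = 0.00354) and mature (2.09, adjusted p = 0.00147), and CCR, a cinnamoyl-CoA reductase, at maturing (2.18, adjusted p = 0.00811) and mature (3.28, adjusted p = 0.00189). At SST GRMZM2G171395 stood at 2.91 and 2.35 FPKM in BS and at 0 and 0.911 in M, and it was not called between the cell types. The laccase LAC1 (GRMZM5G842071) lay higher in both M libraries at each stage, without a call. Its SST level was 38.1 and 40.0 FPKM in BS and 54.0 and 73.6 in M. The median log2 BS/M of the 10 was 1.08, 0.12 and 0.21 at SST, maturing and mature, with 1 negative value at each stage. A search of the reference table for further cellulose synthase names found none.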

How the data were processed

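The authors deposited 1 FPKM value per gene and library. Captured RNA was amplified by 1 round before Illumina libraries were made. The submitters' processing notes name CASAVA 1.3, TopHat2 2.0.10, Cuffdiff 2.1.1 and B73 RefGen_v3, with no role or order, while the paper names assembly v2. Their FPKM per library summed to 1009183 to 1551571, and 47572 genes were above 0. How reads shared by related genes were split, and the effect of aligning Mo17 reads to B73 models, were not tested.

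Values were scaled to the mean upper quartile (2.56) over genes above 0, and log2(value + 0.256) was fitted with limma 3.58.1 in R 4.3.3 (6 group means, trend of the spread, 6 residual and 2.12 prior degrees of freedom). A gene was tested if the mean of any group reached 0.256 FPKM, with p-values adjusted by Benjamini and Hochberg over 32548 genes in each of 12 comparisons. On simulated data with 200 changed genes, 197 were called. The changed genes all had a mean level above the upper quartile, and only large changes were put in. This number therefore does not apply to low genes or to small differences. Replicates correlated at 0.898 to 0.934. Reads were recovered from the steps of low values. Names came from RefSeq (assembly Zm-B73-REFERENCE-NAM-5.0), which matched 7 of 7 members, and no coordinates or sequences were used.

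Named genes are the 7 members and, from lists of related genes, at most 3 per direction called between cell types. Named outside this rule are CesA-1, CesA-4, CesA-8, cesa11, the NST1 homologue, LAC1, the marker genes and the genes most alike in level. Members and lists were chosen with earlier results of these data known. Alternatives were other scalings, pseudocounts, filters, spreads, a replicate block and leaving out each library. The comparison of protein identity was not run.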

Additional observations from a re-analysis of the deposited data

Results flagged for a closer look

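The order of the cesa7 libraries turned from BS above M at SST, where the difference was not called, to M above BS at the later stages. The log2 BS/M changed by -2.64 from SST to maturing and by -2.58 from SST to mature. The test of the change itself gave adjusted p-values of 0.0323 and 0.0258 from limma and did not pass the threshold of 0.01. Without the first mature BS library the second of these was -3.08 and passed (adjusted p = 0.00311).

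GRMZM2G028353 turned the same way from SST to maturing, by -2.40 (adjusted p = 0.103), on 7 and 15 reads in the maturing BS libraries. Its BS to M difference was called at neither of these stages.

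Among the lignin genes, the log2 BS/M of CAOMT changed by 2.90 from maturing to mature (adjusted p = 0.00439), since its M level went from 124.5 and 134.9 FPKM to 16.1 and 11.0, while its BS level went from 172.3 and 122.6 to 101.4 and 127.0.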

How the results depend on the processing

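The M-enrichment of cesa2 and cesa6 at maturing and mature kept its call under each scaling, pseudocount, filter, trend, block and left-out library, and lost it with separate fits. With separate fits no member was called in these comparisons or in the 4 comparisons with SST within a cell type (0 each), where the residual degrees of freedom drop from 6 to 2, and 1 member, cesa7, was called in the change from SST to maturing. At SST 1 member, cesa6, was called with a pseudocount of 1 FPKM and 1 with the stricter filter. From SST to mature in M, 2 members were called with a pseudocount of 0.0256 and 2 with the stricter filter, which leaves CesA12 untested, and cesa7 gained a call with a pseudocount of 1 FPKM (adjusted p = 0.0065) or scaled by the median of ratios (0.00906). GRMZM2G028353 lost its call with that pseudocount (0.011), so that the count stayed at 4, and without a filter (0.0194). Leaving out 1 library gave 1 to 2 called members in M from SST to maturing, where CesA12 was called without the first SST M library (0.0081), 2 to 3 in M from SST to mature and 0 to 1 in the change from SST to mature. Where no construction is named, the cause was not tested.

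Values near 0 that were not called turned sign. For cesa10 between the cell types at maturing the value was 0.018 in the deposited scale and 0.013 by the median of ratios, and at mature it ran from -0.20 to 0.57 over the left-out libraries. In BS from SST to mature cesa10 had -0.16 and -0.24 under these scalings, and -0.37 to 0.41 over the libraries. In BS cesa3 had -0.032 and -0.049 from SST to maturing (-0.38 to 0.47) and -0.027 and -0.081 from SST to mature (-0.39 to 0.58). In M it had -0.084 and -0.15 from SST to mature (-0.16 to 0.21) and ran from -0.30 to 0.21 over the libraries from SST to maturing. CesA12 between the cell types at maturing ran from -0.51 to 0.048.

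No pairing by replicate number was seen: deviations of same-numbered libraries correlated at -0.042 to 0.023 over all tested genes. Noise of single libraries can hide a shared preparation, so that pairing is not excluded. With the replicate block 2 members were called at mature (cesa7 lost its call, adjusted p = 0.0131) and 3 from SST to mature in M (GRMZM2G028353 lost its call, 0.0101), and the other counts of members did not move. Over all tested genes the block gave 52, 164 and 137 called changes of log2 BS/M from SST to maturing, maturing to mature and SST to mature, against 100, 304 and 239. Without a filter the first was 209. Separate fits called 0, 367 and 0 genes between the cell types at SST, maturing and mature, against 1003, 2729 and 1863. They called 245, 321 and 806 in BS from SST to maturing, maturing to mature and SST to mature, against 3616, 4672 and 7150, and 352, 479 and 0 in M, against 2717, 4641 and 6345. For the changes from SST to maturing and to mature they called 346 and 432.

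CesA12 after SST, and GRMZM2G028353 in maturing BS and at mature, rested on few reads, with as few as 0 in a library. The maturing libraries were the deepest. Set against the first SST BS library, their depth was 2.31 to 2.36, where that of the SST libraries was 0.645 to 1.0.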
